A study of Mus musculus with 15 samples.

Results

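Islet cells of mice in which the transcription factor Pdx1 had been targeted were compared with control beta cells, the insulin-producing cells of the islet. The comparison took the 5 arrays titled as Pdx1-deficient and the 5 titled as islet beta cells, 10 of the 15 arrays of the series, and covered the 19938 genes that had a transcript cluster with 1 gene symbol. It was repeated without the array labelled Pdx1-deficient 1, which kept Pdx1 at the level of the beta arrays. The other 5 arrays, of alpha cells, entered the shared estimate of spread and are given beside some values. They also entered the choice of 1 cluster per gene, the mean signal of each gene and some alternative settings.

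All cells came from mice of a mixed B6 and BALB/C background. The arrays titled Pdx1-deficient carry the genotype label Pdx1-deficient (PKO), are described as reprogrammed cells, and were made from islet cells taken 5 days after tamoxifen (TAM), the drug that switches on a CreER recombinase. The beta cells were sorted for YFP from mice 2 months old, and their genotype label is glucagon-Cre; RosaYFP. The alpha samples carry the label RIP-CreER; Pdx1fl/+, RosaYFP. These driver labels are the reverse of where the glucagon and rat insulin promoters (RIP) are known to be active, and groups here follow the sample titles. The age of the Pdx1-deficient mice, the exon removed, the way these cells were sorted and whether the controls received tamoxifen were not stated in the labels. Separate animals for the samples of 1 group were not stated either. The p-values therefore measure the spread between samples that may be technical repeats.

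Pdx1 is a homeodomain transcription factor that beta cells keep expressing in the adult, where it binds the insulin gene and many genes of glucose sensing and secretion. Beta cells make very large amounts of proinsulin, which enters the endoplasmic reticulum (ER), folds there with the help of chaperones and disulfide isomerases, and leaves in vesicles for the Golgi and the secretory granule. The unfolded protein response sets the capacity of this route through the sensors IRE1, PERK and ATF6 and the transcription factors XBP1, ATF4 and ATF6. The comparison asked which genes change soon after Pdx1 is lost; the short time after tamoxifen was chosen to enrich for genes that Pdx1 affects directly, per the series' design text.

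Pdx1 itself checks the labels. On the log2 scale of the deposited signals it read 8.85, 9.33, 9.26, 9.02 and 9.26 in beta arrays 1 to 5, and 9.12, 7.83, 7.68, 6.53 and 7.59 in the arrays labelled Pdx1-deficient 1 to 5. Arrays 2 to 5 lay below every beta array, and array 1 lay inside the beta range, so the target gene went against that label. The difference over 5 against 5 arrays was -1.39 (SE 0.34), short of the threshold (limma adjusted p = 0.0575), and had a two-sided exact permutation p of 0.0238, where 252 arrangements allow no less than 0.00794. Arrays 2 to 5 alone averaged 7.41 ± 0.59 (SD, n = 4), a difference of -1.74, given as a description because array 1 was left out for its Pdx1 level. It was not known whether this cluster's probes fall inside the removed exon.

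**Figure D1:**
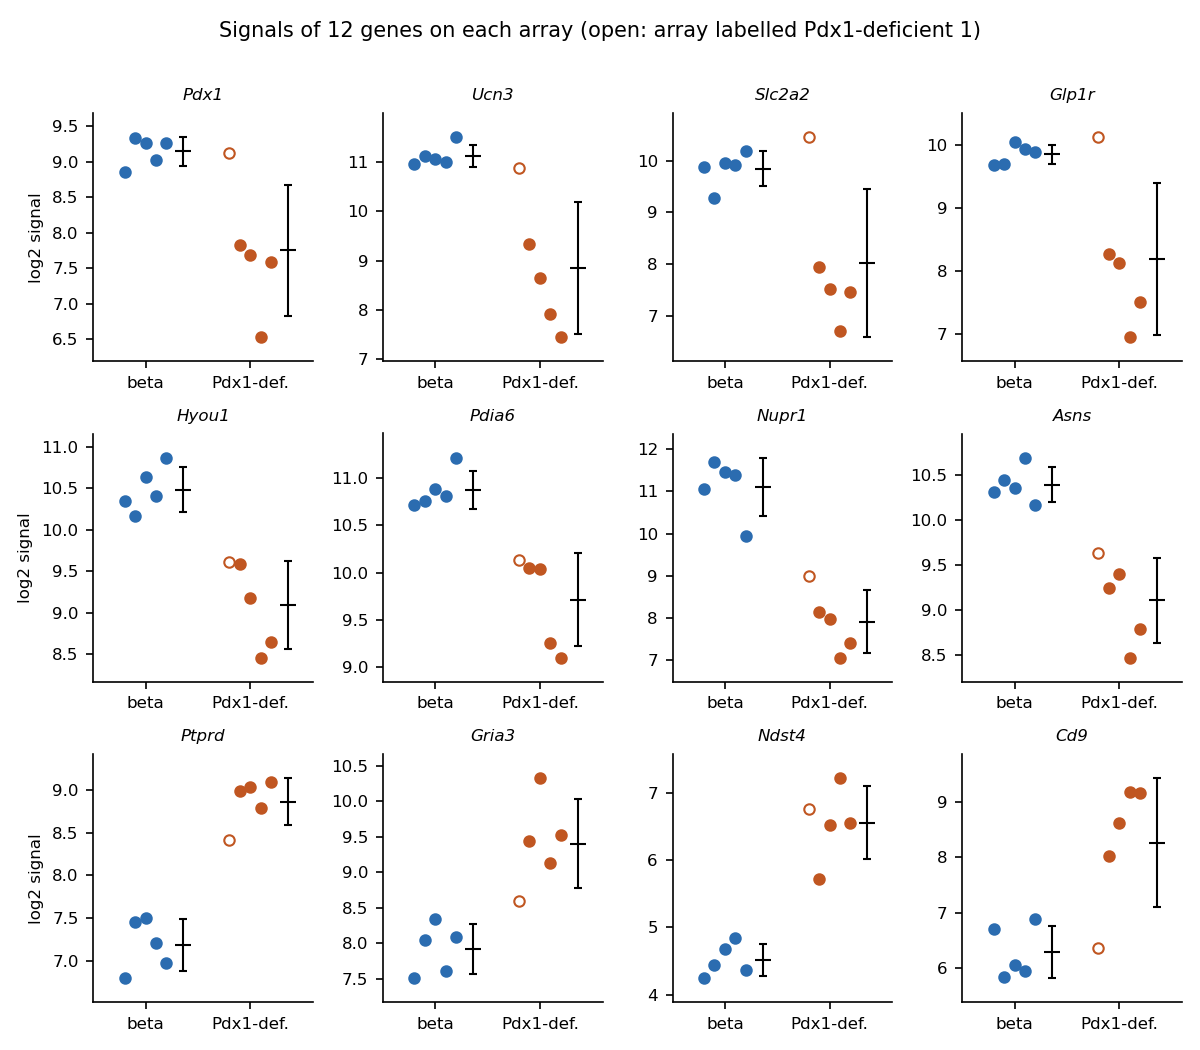
Each panel plots the log2 signal of 1 gene on the 5 beta arrays and the 5 arrays labelled Pdx1-deficient, with points in the order of the array numbers and the mean ± SD of each group (n = 5) beside them. The open point, the array labelled Pdx1-deficient 1, sits at or near the beta arrays for Pdx1, Ucn3, Slc2a2, Glp1r and Cd9, and away from all of them for Hyou1, Pdia6, Nupr1, Asns, Ptprd, Gria3 and Ndst4.

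Over 5 against 5 arrays 217 of 19938 genes passed an adjusted p of 0.05, which is 1.09% of the genes tested. Of these, 185 were lower after Pdx1 deletion as labelled (0.928%) and 32 were higher (0.16%), and 57 and 8 of them differed at least 2-fold. Without array 1 the count was 548 (2.75%), with 457 lower (2.29%) and 91 higher (0.456%), of which 184 and 21 differed at least 2-fold; 213 of the 217 genes were among them. The groups of 5 arrays did not overlap for 635 genes in the lower direction (3.18%) and 553 in the higher (2.77%). Without array 1 these were 1052 (5.28%) and 910 (4.56%). With the median of each array subtracted the calls shifted downward, to 26 higher and 589 lower over 5 against 5 arrays and to 44 and 928 without array 1. That is 4.23% and 4.53% higher, against 14.7% and 16.6% on the deposited values.

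The number of calls rested on single arrays. Over 5 against 5 arrays it was 1 without Pdx1-deficient array 4, 0 without array 5 (limma; 3094 genes at an unadjusted p under 0.05), 21 without array 2, and 4, 69, 3 and 4 without beta arrays 1, 3, 4 and 5. Without array 1 throughout, leaving out a further array gave 176 without array 4, 130 without array 5, 1097 without array 3, and 205, 339, 228 and 260 without beta arrays 1, 3, 4 and 5. None of the 53 named genes that passed over 5 against 5 arrays, nor of the 98 that passed without array 1, reversed its direction in any alternative tried. These genes were chosen for passing, many also for groups of arrays without overlap. Reversals were thus unlikely from the start, and their absence is no separate support. Of the 53 named genes 0 passed in every leave-out, and 40 of the 98 did. With array medians subtracted the median difference of all genes went from 0.06 to -0.04 over 5 against 5 arrays, so uncalled differences near 0 have no settled sign. Pdx1-deficient arrays 4 and 5 stood apart from the rest of their group. Their medians were 6.03 and 6.05 where beta arrays had 5.88 to 5.93 and alpha arrays 5.93 to 6.02. Their quartiles lay closer together than those of the beta arrays, at 4.805 and 7.236 in array 4. Alpha array 1 was similar, at 4.746 and 7.245. Over the whole table arrays 4 and 5 had the lowest mean correlation with their own group (0.937 and 0.940).

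Genes that fold proteins in the ER were prominent among the lower genes. Of 68 measured genes, 20 fell over 5 against 5 arrays and 0 rose, against 0.928% and 0.16% of all genes. The median difference was -0.62, where the median of all genes was 0.06, and 66 of the 68 differences were negative. At an unadjusted p under 0.05, 51 were lower and 0 higher (limma), where 2150 of all 19938 genes were lower and 2194 higher. For 30 of the 68 every array labelled Pdx1-deficient lay below every beta array, as for 3.18% of all genes and 12.3% of genes with a mean signal between 9 and 10. Without array 1, 30 of the 68 fell and 0 rose, against 2.29% and 0.456% of all genes. No member passed over 5 against 5 arrays once array 4 or array 5 was left out, with medians of -0.51 and -0.57. Without array 1, 17 passed when array 4 was also left out and 12 when array 5 was.

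The ER chaperone Hyou1 read 10.35, 10.17, 10.64, 10.41 and 10.87 in the beta arrays and 9.61, 9.59, 9.18, 8.46 and 8.64 in the arrays labelled Pdx1-deficient. The groups did not overlap, array 1 included, and Hyou1 fell 2.62-fold (log2 difference -1.39, SE 0.24, limma adjusted p = 0.0309, with 0.00725 to 0.193 under other settings). Among the remaining chaperones, co-chaperones and ER cofactors, the log2 differences of genes that fell were -1.53 for Mydgf, an ER-resident secreted protein, -1.40 for Creld2, -1.30 for Sdf2l1, -1.20 for Fkbp11, a prolyl isomerase, and -0.67 for the lectin chaperone Calr. In all, 8 of 19 fell and 0 rose, against 0.928% and 0.16% of all genes. The main luminal chaperones had small differences that did not pass: Hspa5 (BiP) differed by -0.24 (limma adjusted p = 0.138) and Hsp90b1 (GRP94) by -0.09 (limma adjusted p = 0.613). Hspa5 was named after its values were seen. It read 11.57 to 11.94 in the beta arrays and 11.37 to 11.62 in the arrays labelled Pdx1-deficient, and the groups overlapped. Of the 134 genes with a mean signal over 11, 0 fell and 1 rose over 5 against 5 arrays (0.928% and 0.16% of all genes). The median difference of these 134 genes was -0.10. Whether so bright a signal can show a fall was not tested.

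Disulfide formation held 4 falls among 18 genes and 0 rises, against 0.928% and 0.16% of all genes. Pdia6, a disulfide isomerase, read 10.71, 10.76, 10.89, 10.82 and 11.22 in the beta arrays and 10.13, 10.04, 10.04, 9.26 and 9.10 in the arrays labelled Pdx1-deficient. The groups did not overlap, and arrays 4 and 5 were the lowest. Pdia6 fell 2.25-fold (log2 difference -1.17, SE 0.21, limma adjusted p = 0.0316), and the isomerases Pdia4 and Txndc5 fell by 0.99 and 1.00 on the log2 scale. The oxidase gene Ero1b, which passes disulfides to the isomerases, behaved differently: array 1 read 11.80, above all beta arrays (11.30 to 11.79), while arrays 2 to 5 read 10.92, 10.46, 9.32 and 9.71. It differed by -1.08 over 5 against 5 arrays (limma adjusted p = 0.113) and fell by 1.42 without array 1 (limma adjusted p = 0.0136).

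Genes for the removal of misfolded protein gave 3 falls among 16 and 0 rises (0.928% and 0.16% of all genes), with a median of -0.63. Derl3, which helps move such proteins out of the ER, fell by 0.99 on the log2 scale (limma adjusted p = 0.0316) and Selenos, an ER membrane selenoprotein of the same pathway, by 0.90 (limma adjusted p = 0.0316). Sel1l, the scaffold of the ubiquitin ligase, and Edem1, which selects misfolded glycoproteins, differed by -1.15 and -0.99 over 5 against 5 arrays (limma adjusted p = 0.0617 and 0.0618). They fell by 1.27 and 1.18 without array 1.

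The sensors and transcription factors of the response were lower too, with 5 falls and 0 rises among 15 (0.928% and 0.16% of all genes). Nupr1, a small stress-responsive nuclear protein, read 11.06, 11.70, 11.46, 11.38 and 9.95 in the beta arrays and 9.0, 8.15, 7.97, 7.06 and 7.41 in the arrays labelled Pdx1-deficient. Every Pdx1-deficient array lay below every beta array, with array 1 and beta array 5 the closest. The fall was 9.15-fold (log2 difference -3.19, SE 0.72, limma adjusted p = 0.0491, 0.0077 to 0.343 over the alternatives). Creb3l1, an ER-membrane transcription factor, read 8.15 to 8.46 in the beta arrays and 6.52 to 7.34 in the arrays labelled Pdx1-deficient, array 1 at 7.17, and fell 2.49-fold (limma adjusted p = 0.0234). Atf4 fell by 0.68 (limma adjusted p = 0.0491), Xbp1 by 0.57 (limma adjusted p = 0.0316) and Eif2ak3, which encodes PERK, by 0.72 (limma adjusted p = 0.0367). Ern1, which encodes IRE1, differed by -0.07 (limma adjusted p = 0.762), and Trib3, a target of ATF4, by 0.08 (limma adjusted p = 0.756).

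Several of these genes carry the ER stress response element in their promoters, the paired motif that ATF6 binds with the factor NF-Y. The letters CCAAT, a gap of 9 bases and CCACG, on either strand, were searched from 250 bases before to 50 after the start sites of 15562 genes in RefSeq (GRCm38.p6). They were found in 21 genes, 0.135%. Of the 57 ER folding genes with a promoter, 10 held them (17.5%): Calr, Canx, Creld2, Derl3, Dnajc3, Ero1b, Hsp90b1, Hspa5, Pdia6 and Syvn1. The match is a description of the letters, not of binding. The following stretches show the element, with its 2 parts in capitals (CGTGG and ATTGG are the same parts on the other strand), for 5 genes that fell, Ero1b without array 1, and for Hspa5, which holds the same letters and did not pass.
Creld2, chr15:88819500-88819558, plus strand: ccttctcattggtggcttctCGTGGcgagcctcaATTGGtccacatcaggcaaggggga
Pdia6, chr12:17266471-17266529, plus strand: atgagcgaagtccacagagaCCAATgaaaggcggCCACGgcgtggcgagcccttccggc
Derl3, chr10:75893222-75893280, plus strand: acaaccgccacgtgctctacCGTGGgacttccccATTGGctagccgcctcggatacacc
Calr, chr8:84847055-84847113, minus strand: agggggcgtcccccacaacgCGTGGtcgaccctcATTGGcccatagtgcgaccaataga
Ero1b, chr13:12565662-12565720, plus strand: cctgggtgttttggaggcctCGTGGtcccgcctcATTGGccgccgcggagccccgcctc
Hspa5, chr2:34772005-34772063, plus strand: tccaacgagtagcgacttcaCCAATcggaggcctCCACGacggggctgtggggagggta

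Of the 10 genes with the element, Calr, Creld2, Derl3 and Pdia6 fell over 5 against 5 arrays and Ero1b also fell without array 1. Canx, Dnajc3, Hsp90b1, Hspa5 and Syvn1 held the same letters and differed by -0.35, -0.51, -0.09, -0.24 and -0.31 over 5 against 5 arrays, with limma adjusted p-values from 0.115 to 0.613. Thus the letters alone did not separate members that fell from members that did not pass. Among all 376 genes lower without array 1 that had a promoter, 5 held the element (1.33%), and among the 61 higher ones 0 did. With 0.135% of all promoters holding it, 61 genes are too few to show a lower share. The related run TGACGTGG, found in 0.912% of all promoters, was held by 12 of 136 genes of ER folding, entry and ER to Golgi traffic (8.82%). The homeodomain core TAATTA, which Pdx1 and many other homeodomain factors bind, was present in 5.06% of all promoters. Without array 1 it was present in 11 of the 376 promoters of lower genes (2.93%) and 1 of the 61 of higher genes (1.64%). These shares rest on few genes and their differences were not tested.

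Entry into the ER and the addition of sugar chains, the steps before folding, showed the same direction. Of 55 measured genes 10 fell and 0 rose over 5 against 5 arrays, against 0.928% and 0.16% of all genes, with a median of -0.63. For 32 of the 55 all arrays labelled Pdx1-deficient lay below all beta arrays, against 3.18% of all genes. At an unadjusted p under 0.05, 42 were lower and 0 higher (limma), against 2150 and 2194 of all 19938 genes. Without array 1, 23 fell and 0 rose, against 2.29% and 0.456% of all genes. With array 4 or array 5 left out as well, 6 and 5 did. Over 5 against 5 arrays 0 passed without either of these 2 arrays.

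Dpagt1, which starts the sugar chain, read 7.83, 7.46, 7.58, 7.63 and 8.36 in the beta arrays and 6.65, 6.61, 7.01, 6.92 and 6.71 in the arrays labelled Pdx1-deficient. The groups did not overlap and array 1 was among the lowest. Dpagt1 fell by 0.99 (limma adjusted p = 0.0496) and did not pass without array 1 (-0.96, limma adjusted p = 0.0534). Dpm3, a subunit of the enzyme that makes dolichol phosphate mannose, fell by 0.87 (limma adjusted p = 0.0466). Rpn2, a subunit of the oligosaccharyltransferase, fell by 1.18 without array 1 (limma adjusted p = 0.0253), as did Srpr, a subunit of the signal recognition particle receptor, by 1.13 (limma adjusted p = 0.0186). The translocon subunit Sec61b and the translocon-associated proteins Ssr3 and Ssr4 fell by 0.90 to 0.93 on the same terms. Over 5 against 5 arrays these 5 differed by -0.79 to -1.04 and did not pass (limma adjusted p = 0.052 to 0.0767).

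Traffic between the ER and the Golgi followed. The list held 41 measured genes of the COPII and COPI coats, their cargo receptors and retrieval. Over 5 against 5 arrays 9 fell and 0 rose, against 0.928% and 0.16% of all genes. At an unadjusted p under 0.05 (limma), 32 were lower and 0 higher, against 2150 and 2194 of all 19938 genes. Without array 1, 15 fell and 0 rose, against 2.29% and 0.456% of all genes. With array 4 or array 5 left out as well, 9 and 5 did, and over 5 against 5 arrays 0 passed without either of them. Copz2, a subunit of the COPI coat, read 10.38, 10.17, 10.13, 10.34 and 10.30 in the beta arrays and 9.16, 9.45, 8.92, 7.48 and 8.19 in the arrays labelled Pdx1-deficient. The beta arrays were tight, all Pdx1-deficient arrays lay below them, and arrays 4 and 5 were again the lowest. Copz2 fell 3.09-fold (limma adjusted p = 0.0316). The COPI subunit Cope fell by 1.10 on the log2 scale, Lman1, the cargo receptor for clotting factors and other glycoproteins, by 1.15, and Preb, the exchange factor that starts COPII assembly, by 0.95. Kdelr1, which returns escaped ER proteins, differed by -1.06 over 5 against 5 arrays (limma adjusted p = 0.0503) and fell by 1.21 without array 1.

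The 164 genes of folding, entry and traffic together had 39 falls and 0 rises over 5 against 5 arrays. Of all genes 0.928% fell and 0.16% rose. Their median differences from the beta mean were -0.33, -0.48, -0.41, -0.85 and -0.82 in Pdx1-deficient arrays 1 to 5, where single beta arrays ranged from -0.11 to 0.14. All 5 arrays were low and arrays 4 and 5 lowest. Bright genes in general read lower on these arrays. For genes with a mean signal between 9 and 10 the median difference was -0.19 over all 5 arrays and -0.30 and -0.32 in arrays 4 and 5, while genes with a mean signal between 5 and 6 had 0.13, and the groups did not overlap in the lower direction for 12.3% of the former and 0.221% of the latter. For the 164 genes, which averaged 9.17 to 9.36 over the beta arrays, that share was 47.6%. After quantile normalization the medians of the 9 to 10 and 5 to 6 bins were -0.04 and 0.01. The medians of the 3 lists, of 68, 55 and 41 genes, remained at -0.49, -0.50 and -0.46. Of their members 5, 2 and 0 passed over 5 against 5 arrays and 20, 8 and 7 without array 1. Of all 19938 genes 29 and 294 passed after quantile normalization in these 2 comparisons. The part of the arrays' narrower range in these counts was not otherwise tested.

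**Figure D2:**
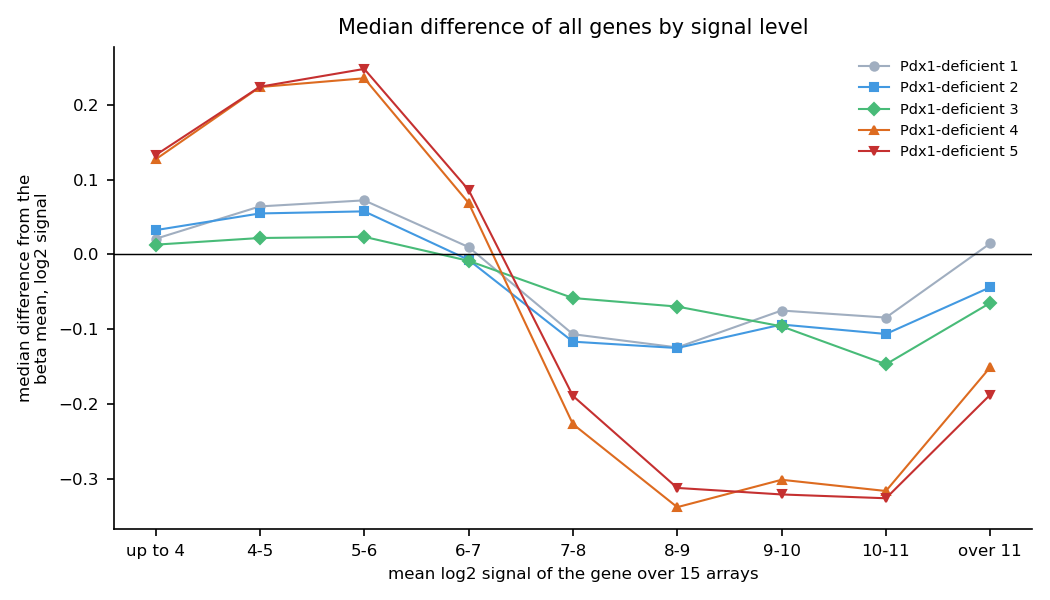
The plot shows, for genes binned by their mean log2 signal over 15 arrays (horizontal axis), the median difference of each array labelled Pdx1-deficient from the beta mean (vertical axis, log2 signal). Arrays 4 and 5 lie up to 0.25 above the beta mean for genes between 5 and 6 and 0.30 to 0.34 below it for genes between 8 and 11, and arrays 1 to 3 follow the same shape with smaller values.

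Genes that supply and charge amino acids were lower alongside. These lists, of ATF4 targets and of cytosolic tRNA synthetases, were added after values were seen and partly hold genes already described. Of 24 ATF4 target genes 6 fell and 0 rose over 5 against 5 arrays (0.928% and 0.16% of all genes), and 8 fell without array 1 (2.29% of all genes). Of 17 tRNA synthetases 5 fell and 0 rose, and 9 fell without array 1, with medians of -0.79 and -0.89. At an unadjusted p under 0.05, 27 of the 41 were lower and 0 higher (limma), against 2150 and 2194 of all 19938 genes. No member of either passed over 5 against 5 arrays without array 4 or without array 5. Without array 1, 6 targets and 6 synthetases passed when array 4 was also left out, and 5 and 4 when array 5 was.

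Asns, asparagine synthetase, read 10.30, 10.44, 10.35, 10.69 and 10.16 in the beta arrays and 9.63, 9.24, 9.40, 8.47 and 8.79 in the arrays labelled Pdx1-deficient. The groups did not overlap, and Asns fell 2.43-fold (limma adjusted p = 0.0234, 0.0047 to 0.119 over the alternatives). The amino acid transporter Slc7a5, the glutathione-degrading enzyme Chac1 and the mitochondrial folate enzyme Aldh1l2 fell too, with log2 differences of -1.01, -1.25 and -1.50. Cars, the cysteinyl-tRNA synthetase, read 7.88 to 8.45 in the beta arrays, 7.76 in array 1 and 6.84 to 7.08 in arrays 2 to 5. It fell 1.99-fold over 5 against 5 arrays (limma adjusted p = 0.0316) and 2.24-fold without array 1 (limma adjusted p = 0.00288). Phgdh and Cebpb, also targets of ATF4, differed by 0.05 each (limma adjusted p = 0.911 and 0.834), so members of the list differed among themselves.

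Array 1 differed from the other arrays of its group over genes of beta-cell identity: of 15 markers it lay below all beta arrays for 3 and above all of them for 6. Of these 15 markers 1, Ucn3, fell over 5 against 5 arrays and 8 fell without array 1, with 0 rises in either. The 1 fall and the 8 falls compare with 0.928% and 2.29% of all genes, and array 1 had been left out for its Pdx1 level. At an unadjusted p under 0.05 (limma), 8 markers were lower and 1 higher over 5 against 5 arrays, and 9 and 0 without array 1. Over all 19938 genes these counts were 2150 and 2194, and 2275 and 2325. With array 4 or array 5 also left out, 6 and 5 passed. The median difference of the 15 markers was 0.14 in array 1 and -0.60, -0.82, -1.35 and -1.52 in arrays 2 to 5, where single beta arrays ranged from -0.15 to 0.19.

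Ucn3, the peptide hormone urocortin 3 of mature beta cells, read 10.95, 11.13, 11.05, 11.00 and 11.50 in the beta arrays and 10.88, 9.34, 8.65, 7.92 and 7.44 in the arrays labelled Pdx1-deficient. Array 1 lay just below the lowest beta array and the others were far below it (limma adjusted p = 0.0389 over 5 against 5 arrays, 0.00288 to 0.285 under other settings). Slc2a2, the glucose transporter GLUT2, read 9.88, 9.28, 9.95, 9.92 and 10.19 in the beta arrays and 10.46, 7.94, 7.52, 6.71 and 7.45 in the arrays labelled Pdx1-deficient, array 1 above every beta array. It differed by -1.83 over 5 against 5 arrays (limma adjusted p = 0.0915) and fell 5.43-fold without array 1 (log2 difference -2.44, SE 0.32, limma adjusted p = 0.00395, 0.0018 to 0.0801 over the alternatives). Glp1r, the receptor for the incretin GLP-1, showed the same order: 9.69, 9.69, 10.05, 9.93 and 9.90 in the beta arrays against 10.13, 8.26, 8.13, 6.95 and 7.51. Its fall without array 1 was 4.41-fold (limma adjusted p = 0.00188, at most 0.019 over the alternatives).

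The transcription factor Nkx6-1 read 7.17, 7.68, 8.12, 7.71 and 7.99 in the beta arrays, 7.73 in array 1, and 6.97, 6.66, 6.09 and 6.22 in arrays 2 to 5. It fell 2.38-fold without array 1 (limma adjusted p = 0.00793) and did not pass with it (limma adjusted p = 0.0676). The glucose-6-phosphatase gene G6pc2 of islets fell 2.88-fold without array 1 (limma adjusted p = 0.0107) and read 12.17 in array 1, above all beta arrays (11.92 to 12.12). The phosphatase inhibitor gene Ppp1r1a, the sulfate-donor enzyme Papss2 and the granule effector Sytl4 followed the same course, with falls of 4.40-fold, 5.35-fold and 3.63-fold without array 1. Their array 1 values lay inside the beta range. Prss53, a serine protease gene, fell 4.73-fold without array 1, with array 1 at 9.25 inside the beta range of 8.46 to 10.21. Bace2, a membrane protease of beta cells, was lower in array 1 as well, by 0.68, and fell by 1.54 without it.

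Most other islet transcription factors did not pass. Of 19 that are active in beta cells or shared between islet cells, 1 fell and 0 rose over 5 against 5 arrays, and without array 1, apart from Pdx1, whose level chose the arrays, 2 fell and 1 rose. Of all genes 0.928% fell and 0.16% rose over 5 against 5 arrays, and 2.29% and 0.456% without array 1. Bhlha15 (MIST1), which builds the secretory apparatus of professional secretory cells, read 7.50 to 8.39 in the beta arrays and 6.46 to 7.03 in the arrays labelled Pdx1-deficient, array 1 being 7.03. It fell 2.13-fold (limma adjusted p = 0.0316). Myt1, a neuroendocrine zinc-finger factor, rose by 0.69 without array 1 (limma adjusted p = 0.0423). Foxa2, Nkx2-2, Pax6, Isl1 and Neurod1 differed by -0.33, 0.05, 0.14, 0.02 and 0.39 over 5 against 5 arrays, with limma adjusted p-values from 0.197 to 0.931.

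The other hormone genes described here, named after their values were seen, had small differences that did not pass. Ins2 read 11.77 to 11.98 in the beta arrays and 11.90 to 12.12 in the arrays labelled Pdx1-deficient, a difference of 0.13 (limma adjusted p = 0.297). Gcg, the glucagon gene, read 12.15 to 12.51 and 12.35 to 12.79 in the same groups, a difference of 0.17 (limma adjusted p = 0.367). Its beta arrays were thus already near the alpha arrays (12.49 to 12.87). Iapp, the islet amyloid peptide, differed by -0.16 and Ppy by 0.12, and neither passed (limma adjusted p = 0.394 and 0.637). Mafa, a transcription factor of mature beta cells, read 6.33 to 6.79 in the beta arrays and 6.36 to 6.55 in the arrays labelled Pdx1-deficient. These clusters show little separation between the cell types as titled. Ins2 and Gcg also read above 11 on all beta and Pdx1-deficient arrays. Of the 134 genes with a mean signal over 11, 0 fell and 1 rose over 5 against 5 arrays (0.928% and 0.16% of all genes). Whether signals this bright can show a change was not tested, so the small differences do not show that these RNAs stayed the same.

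Of 24 genes of glucose sensing 0 passed over 5 against 5 arrays, and Slc2a2 and G6pc2 fell without array 1, as did 2.29% of all genes. At an unadjusted p under 0.05 (limma), 10 of the 24 were lower and 1 higher, against 2150 and 2194 of all 19938 genes. Pdk4, which restrains the entry of pyruvate into the mitochondrial cycle, read 5.08 to 7.02 in the beta arrays and 7.0 to 8.88 in the arrays labelled Pdx1-deficient, a difference of 1.75 (limma adjusted p = 0.097).

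Secretory granule genes gave few calls. Of 18 genes for granule content and processing 0 passed over 5 against 5 arrays. At an unadjusted p under 0.05 (limma), 5 were lower and 1 higher, against 2150 and 2194 of all 19938 genes. Sytl4 and the proton pump subunit Atp6v1a (-0.49, limma adjusted p = 0.0328) fell without array 1, as did 2.29% of all genes. Of 30 genes of the fusion machinery 3 fell and 1 rose over 5 against 5 arrays, against 0.928% and 0.16% of all genes. The GTPase gene Rab3d fell by 1.35, from 7.78 to 9.11 in the beta arrays to 6.20 to 7.19 in the arrays labelled Pdx1-deficient, and the SNARE Vamp8 fell by 0.89. The synaptic vesicle gene Syp fell by 0.65. Syt16, a synaptotagmin family member, rose by 0.94 (limma adjusted p = 0.0367), and Rab3c, a relative of Rab3d, rose by 1.79 without array 1 (limma adjusted p = 0.0362), with 6.06 to 8.15 in the 5 arrays labelled Pdx1-deficient and 4.22 to 5.30 in the beta arrays.

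Further large falls lay outside these lists. Tcim, a small regulator of Wnt signalling, read 7.66, 9.46, 8.82, 8.65 and 8.84 in the beta arrays and 7.24, 6.84, 6.12, 3.98 and 4.24 in the arrays labelled Pdx1-deficient. The groups did not overlap, although array 1 came close to beta array 1, and Tcim fell 8.02-fold (limma adjusted p = 0.0316). Nell1, a secreted growth regulator, fell 3.78-fold, Scnn1b, a subunit of the epithelial sodium channel, 3.39-fold, and Clptm1l, a lipid scramblase of the ER, 3.01-fold. Kcnip1, a partner of potassium channels, fell 2.92-fold and the copper transporter Slc31a1 2.79-fold. Selenom, an ER selenoprotein, fell 2.78-fold and the exonuclease gene Isg20 2.65-fold. The antioxidant enzyme gene Gpx1, named after its values were seen, fell 2.53-fold. In these genes the limma adjusted p-values ran from 0.0234 to 0.0429 over 5 against 5 arrays.

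Without array 1 the calcium-binding protein gene S100a4 fell 4.57-fold, with 9.38 in array 1, just below the beta arrays (9.55 to 10.40), and 6.73 to 8.38 in the other 4. The transducin gene Gnat2 and Ccdc149 fell 4.30-fold and 3.72-fold on the same terms. The neurotrophin receptor gene Ntrk2 fell in both comparisons, from 6.97, 7.24, 7.37, 7.04 and 7.26 in the beta arrays to 6.38, 6.38, 6.38, 6.21 and 6.0. Its values were tight in both groups, array 1 included (limma adjusted p = 0.0245 over 5 against 5 arrays).

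Fewer genes rose. Ptprd, a receptor tyrosine phosphatase that organises synapses, read 6.80, 7.46, 7.50, 7.21 and 6.98 in the beta arrays and 8.41, 8.98, 9.03, 8.79 and 9.09 in the arrays labelled Pdx1-deficient. The groups did not overlap, array 1 being the lowest of the 5, and Ptprd rose 3.18-fold (log2 difference 1.67, SE 0.22, limma adjusted p = 0.0164, 0.00288 to 0.119 over the alternatives). Gria3, an AMPA-type glutamate receptor subunit, read 7.51, 8.05, 8.34, 7.61 and 8.10 against 8.60, 9.44, 10.33, 9.13 and 9.53. It rose 2.80-fold (limma adjusted p = 0.0316) and was the 1 of 23 measured glutamate receptors that passed over 5 against 5 arrays, where 0.16% of all genes rose. Grin2c rose by 0.66 without array 1 (limma adjusted p = 0.0471).

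Ndst4, a heparan sulfate enzyme on the alpha-cell marker list, read 4.24, 4.44, 4.68, 4.84 and 4.37 in the beta arrays and 6.77, 5.73, 6.52, 7.23 and 6.56 in the arrays labelled Pdx1-deficient. Array 1 was among the highest, and the beta values lay near the 25th percentile of all signals (4.68), close to background. It rose 4.14-fold (limma adjusted p = 0.0316). The receptor tyrosine kinase gene Kit read 5.47 to 6.44 in the beta arrays, 6.49 in array 1 and 7.25 to 8.35 in arrays 2 to 5, and rose 2.96-fold (limma adjusted p = 0.0316). Zim1, an imprinted zinc-finger gene, read 6.87 to 8.29 and 8.76 to 9.40, with array 1 at 9.12, and rose 2.87-fold (limma adjusted p = 0.0381). Dbpht2, a gene of little-known function, rose 3.33-fold.

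Smaller rises included Basp1, a membrane protein of nerve endings (0.75 on the log2 scale), the imprinted zinc-finger factor Plagl1 (0.68) and Nhsl2 (0.64). Of 37 splicing and RNA-binding regulators 2 rose and 0 fell over 5 against 5 arrays (0.16% and 0.928% of all genes), Tra2a by 0.77 and Rbms3 by 0.71, and without array 1 Rbfox1 rose too, by 0.54 (limma adjusted p = 0.048). Array 1 lay above all beta arrays for each of these 3. Nr4a2, an orphan nuclear receptor and immediate early gene, read 6.95 to 8.03 in the beta arrays, 8.01 in array 1 and 8.36 to 9.61 in arrays 2 to 5, and rose 2.72-fold (limma adjusted p = 0.0472). Its relative Nr4a1 rose 2.91-fold without array 1. Among 24 immediate early genes, which also respond to tissue dissociation, 1 rose and 1 fell (Ier5, by 0.81) over 5 against 5 arrays. These counts compare with 0.16% and 0.928% of all genes, and 22 of the 24 did not pass. The median of the 24 was 0.24. Their mean level was 7.43 to 7.81 in the beta arrays and 7.84 to 8.10 in the arrays labelled Pdx1-deficient, and the part of dissociation in the rises was not tested.

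Cd9, a tetraspanin of the cell surface, showed the largest rise without array 1. It read 6.71, 5.85, 6.05, 5.96 and 6.89 in the beta arrays and 6.37, 8.03, 8.62, 9.17 and 9.15 in the arrays labelled Pdx1-deficient. Array 1 stayed inside the beta range and the other 4 lay above it. Cd9 rose 5.47-fold without array 1 (log2 difference 2.45, SE 0.33, limma adjusted p = 0.0047) and did not pass with it (limma adjusted p = 0.0517). The small nucleolar RNA gene Snord61, Sinhcaf of the Sin3 repressor complex, Dear1 and the kinase gene Pak7 rose 2.60-fold to 4.37-fold on the same terms, each with array 1 inside the beta range.

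**Figure D3:**
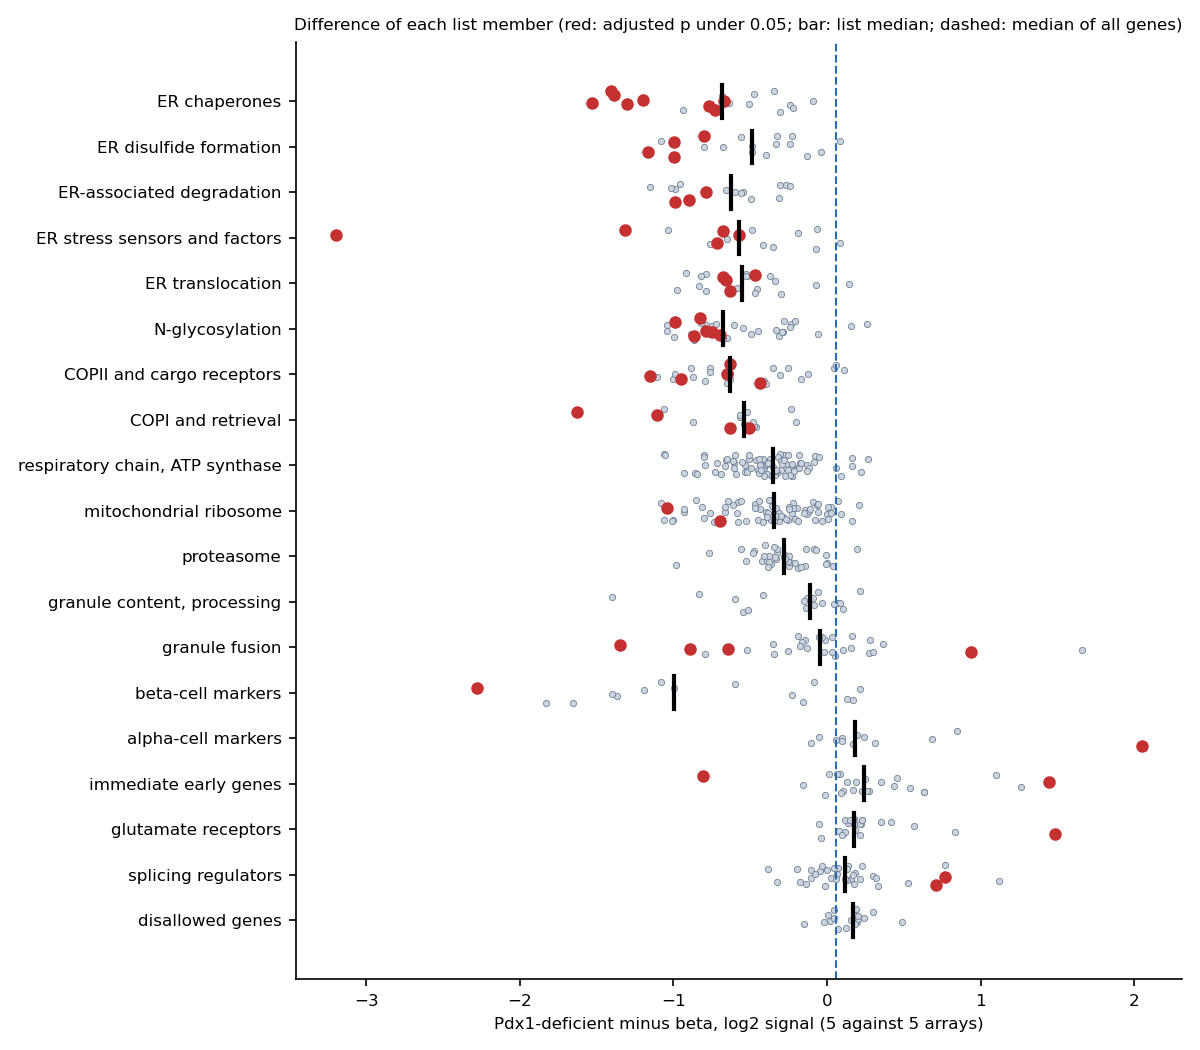
Each point is 1 gene of a list, placed by its difference between the arrays labelled Pdx1-deficient and the beta arrays (log2 signal, 5 against 5 arrays), with genes at an adjusted p under 0.05 in red, a bar at the list's median and a dashed line at the median of all genes (0.06). The 8 rows of ER entry, folding and traffic lie to the left with 39 red points between them, the beta-cell markers spread widely with 1, and the alpha-cell markers lie near the dashed line apart from Ndst4.

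Mitochondrial genes were shifted less. Of 84 genes of the respiratory chain and ATP synthase 0 passed over 5 against 5 arrays (limma; 43 lower and 0 higher at an unadjusted p under 0.05) and 5 fell without array 1, among them the complex I subunit Ndufs6 (-0.89, limma adjusted p = 0.0309) and the succinate dehydrogenase subunit Sdhb (-0.86, limma adjusted p = 0.0482). The list's median was -0.35, and 2.29% of all genes fell without array 1. Of 74 genes of the mitochondrial ribosome 2 fell over 5 against 5 arrays (0.928% of all genes did), Mrpl11 by 1.04 and Mrps5 by 0.70. The median of the 74 was -0.34. Of 39 proteasome subunits 0 passed, with a median of -0.28, and 9 were lower and 0 higher at an unadjusted p under 0.05 (limma). These medians compare with -0.16 to -0.23 for all genes with mean signals between 7 and 11. Sterol synthesis (23 genes, median -0.19), genes disallowed in beta cells (18, 0.17), progenitor genes (15, 0.02) and cell cycle genes (28, 0.00) had 0 calls in either comparison by limma, with 5, 3, 4 and 3 genes at an unadjusted p under 0.05 over 5 against 5 arrays. By the same unadjusted measure 2150 of all 19938 genes were lower and 2194 higher. Of 16 interferon genes 0 passed over 5 against 5 arrays (limma; 1 lower and 2 higher at an unadjusted p under 0.05) and Usp18 fell by 1.00 without array 1.

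Whether array 1 moved with its group was examined gene by gene, using genes chosen without it. Of the 457 genes lower without array 1, array 1 lay below every beta array for 284, inside the beta range for 155 and above it for 18; over all genes it lay below every beta array for 15.9%. Of the 91 higher genes it lay above every beta array for 50, inside the range for 37 and below it for 4, where 19.0% of all genes lay above. The median share of the difference of arrays 2 to 5 that array 1 showed was 43.9% for lower and 39.2% for higher genes. These shares use the same beta arrays that chose the genes.

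The lists divided on this measure. Of the 68 lower genes of ER folding, entry and traffic, array 1 lay below every beta array for 54 (79.4%), with a median of 47.4% of the difference. All 457 lower genes, these included, had 62.1% and 43.9%. The median share of the ER genes was thus near that of lower genes in general. For the 17 lower ATF4 targets and tRNA synthetases array 1 lay below every beta array for 13, with 45.3%. Of the 8 lower beta-cell markers it did so for 2, lay above every beta array for 4, and the median was -11.1%. Array 1 thus read inside the beta range for Pdx1, above it for Slc2a2, Glp1r and G6pc2, and like the other arrays of its group, to a lesser degree, for most of the ER genes. What set array 1 apart was not tested.

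**Figure D4:**
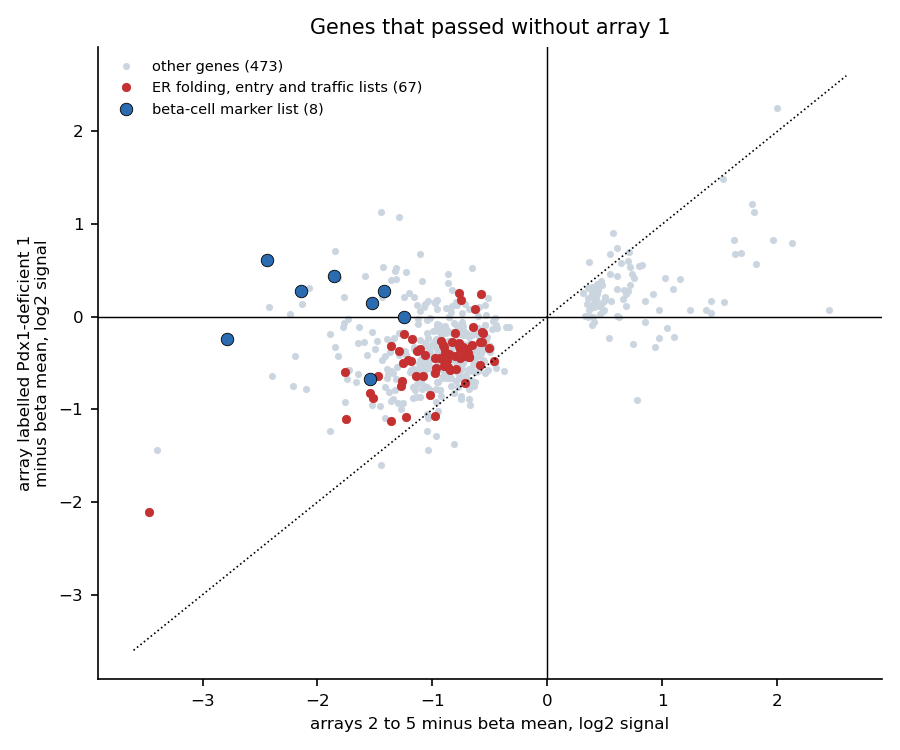
Each point is 1 of the 548 genes that passed without array 1, placed by the difference of arrays 2 to 5 from the beta mean (horizontal axis, log2 signal) and that of the array labelled Pdx1-deficient 1 (vertical axis, log2 signal); both use the same beta mean, and the dotted line marks equal differences. Most ER genes lie below 0 on both axes, with a median of -0.42 in array 1 against -0.89 in arrays 2 to 5, while 5 of the 8 beta-cell markers, Ero1b among them, lie above 0 in array 1.

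Markers of other cells were followed beside these results. Of 12 alpha-cell markers 1 rose, Ndst4, and 0 fell, in both comparisons, where 0.16% and 0.456% of all genes rose. The mean level of the 12 was 7.63 to 7.83 in the beta arrays, 8.49 in array 1 and 7.92 to 8.09 in arrays 2 to 5. Array 1 lay above every beta array for 8 of the 12 and below for 0, against 19.0% and 15.9% of all genes. The imprinted gene Peg10, also an alpha-cell marker, was 2.38 above the beta mean in array 1 and its difference without array 1 was -0.21 (limma adjusted p = 0.843). The acinar list had a mean of 6.62 in array 1 against 5.80 to 6.04 in arrays 2 to 5 and 5.76 to 6.68 in the beta arrays. Its gene Cpb1, a carboxypeptidase of digestive juice, read 8.84 in array 1, and 1 alpha array reached an acinar mean of 11.3. None of the delta, PP and epsilon (10 genes), acinar (17), duct (11), endothelial (13), leukocyte (14) and stromal (14) markers passed by limma in either comparison, with 1, 0, 1, 0, 2 and 1 at an unadjusted p under 0.05 over 5 against 5 arrays. The acinar list can show little here, because the high alpha array entered the shared estimate of spread. For 5 of its 17 genes array 1 lay above every beta array and for 0 below, against 19.0% and 15.9% of all genes. Stromal markers were slightly higher on all arrays labelled Pdx1-deficient (5.56 to 5.75 against 5.31 to 5.52), as were dim genes in general. In sorted bulk samples a change in the mix of cells and a change of RNA per cell cannot be told apart, and the part of these markers in the results was not tested.

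The alpha arrays, set beside these values, share the beta controls, so their likeness to the arrays labelled Pdx1-deficient is given as levels only. Ptprd read 8.98 to 10.29 in the alpha arrays, Gria3 9.05 to 10.08, Zim1 8.27 to 10.08, Dbpht2 11.30 to 11.83 and Ndst4 6.50 to 8.79. Ucn3 read 8.06 to 9.39 and Slc2a2 6.93 to 8.76. Hyou1 read 8.66 to 9.52, Pdia6 9.30 to 10.11 and Asns 8.85 to 9.63 in the alpha arrays, each below every beta array. Cd9 read 6.41 to 7.97, below the 8.03 to 9.17 of Pdx1-deficient arrays 2 to 5.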

How the data were processed

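RNA of sorted islet cells, 500 ng per reaction, was hybridised to Affymetrix Mouse Gene 1.0 ST arrays, 5 per group. The authors deposited 1 value per transcript cluster and array in a range of 2.11 to 13.45, read here as log2. The tool was Affymetrix Expression Console, per the submitters' processing notes; its version, the summarization, the background correction, the base of the logarithm and the build were not given in the sources used here. Folds hold only for base 2.

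Of 35556 clusters 21789 had 1 gene symbol in the platform annotation, 1621 several and 12146 none; each of 19938 genes was represented by its brightest single-symbol cluster, with no filter on dim genes. Gene IDs of 21698 clusters matched the RefSeq gene table (GRCm38.p6), which also gave the promoters. limma 3.58.1 (lmFit, eBayes; R 4.3.3) was fitted to 3 group means over 15 arrays, or 14 without array 1, with Benjamini-Hochberg adjustment over all genes and a threshold of 0.05. The fit was tested on simulated data. The number of arrays limits the precision.

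Members, lists and tests were chosen with earlier results of these data known. Genes named are Pdx1, the 12 largest rises and falls whose arrays do not overlap over 5 against 5 arrays, 8 more of each without array 1, and up to 4 members per list past the threshold, or 1 where none passed; Gm and Rik symbols were skipped, and other genes were named after their values were seen. Alternatives were other scalings, a filter on the dimmest 25% of signals, moderation, array weights, cluster choice, the 2 groups alone, a replicate block and leaving out arrays. Same-numbered arrays were checked for pairing: the correlation of their deviations was -0.02, 0.05, 0.06, -0.12 and 0.11 for numbers 1 to 5, so they were treated as unpaired.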

Additional observations from a re-analysis of the deposited data

Results flagged for a closer look

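Of 236 groups of 5 arrays examined (118 named genes in the beta and Pdx1-deficient groups), 11 held 1 array far from the other 4. The gap of that array to the nearest, divided by the whole range, was above Dixon's critical value of 0.71. For unselected, independent values chance gives about 1 in 20. Most of these genes were chosen by their values and all share the same arrays, so whether the number of flags differs from chance cannot be told. Among the arrays labelled Pdx1-deficient, array 1 was highest for Cpb1 (8.84, ratio 0.859), Aldh1l2 (6.72, ratio 0.836) and Cars (7.76, ratio 0.74). Array 4 was lowest for Mrps14 (6.86, ratio 0.863) and Insig1 (7.68, ratio 0.865). Array 5 was highest for Rab3c (8.15, ratio 0.771) and lowest for Hspa5 (ratio 0.773).

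Among the beta arrays, array 1 was lowest for Lman1 (10.73, ratio 0.757), array 2 for Usp18 (7.15, ratio 0.76) and array 3 for Ldha (5.34, ratio 0.721), and array 5 was highest for Rab3d (9.11, ratio 0.793).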

How the results depend on the processing

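The 217 genes of the 5 against 5 comparison became 89 with only the 2 groups fitted, 615 with array medians subtracted, 29 after quantile normalization and 121 with trended, robust moderation, and 0 to 548 with 1 array left out. Without Pdx1-deficient arrays 4 and 5 together 2 genes passed. The 548 genes without array 1 became 972 with array medians subtracted and 294 after quantile normalization, 130 to 1097 with 1 further array left out and 5 without arrays 4 and 5 together. The other alternatives, apart from the replicate block given last, kept both counts within 1.5 times. The difference of Pdx1 was -1.49 with array medians subtracted and -1.39 with dim clusters removed, both past the threshold (limma adjusted p = 0.0368 and 0.048), ran from -1.74 to -1.09 with 1 array left out, and was -0.93 without Pdx1-deficient arrays 4 and 5 together (limma adjusted p = 0.345). Of 53 named genes past the threshold over 5 against 5 arrays, 52 passed with medians subtracted and 13 after quantile normalization; of 98 without array 1, 94 and 75 did. None of these reversed in any alternative, which their choice for passing made unlikely from the start. The cause of these shifts was not tested.

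With the replicate number as a block 8 genes passed over 5 against 5 arrays (6 higher, 2 lower) and 196 without array 1, and 6 of the 53 and 56 of the 98 named genes did; the numbers did not pair the arrays, and of the arrays labelled Pdx1-deficient that of number 5 alone correlated best with the beta array of its own number.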
